A study of Mus musculus with 6 samples.

Results

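The classical pathway is the antibody-triggered arm of complement, and 8 of its genes were followed here: the 3 chains of C1q (C1qa, C1qb, C1qc), the C1 proteases C1ra and C1s1, the next components C4b and C2, and the C1 inhibitor gene Serping1. They were found by gene symbol among the 54532 Ensembl genes of each library, and all 8 were present. RNA had been sequenced from the cervical spinal cord of 6 mice of the C57BL/6 background, 1 library per mouse. In the imiquimod group of 3 mice, 50 mg of a cream with 5% imiquimod, an agonist of Toll-like receptor 7, was spread on shaved skin at the nape daily on 2 days, which gives a psoriasis-like dermatitis. In the vehicle group of 3 mice, the same amount of cream without imiquimod was used. Age and sex of the mice were not given in the sources used here, and the sampled cord is not the treated tissue.

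In the classical pathway, C1q binds antibody on a surface, or certain surfaces directly, and activates the protease C1r, which activates C1s. C1s cleaves C4 and C2, and the products form the enzyme that cleaves C3, while C1 inhibitor covalently blocks C1r and C1s. In the central nervous system microglia are the main source of C1q, which is known for marking synapses for removal, and most plasma complement comes from the liver.

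All 8 genes were higher in imiquimod cords. C1q rose less than 3-fold and nearly alike in every mouse, C4b and C1ra rose more, and C1s1, C2 and Serping1 rose by a like factor on average but unevenly among the imiquimod mice. Levels are FPKM, fragments per kilobase of exon scaled to the depth of the library. The test was limma's moderated test on log2(FPKM + 0.1), with p adjusted by the Benjamini-Hochberg method over the 16513 genes whose mean FPKM reached 0.5 in either group, and a gene was called higher or lower at an adjusted p under 0.05. Of all genes tested, 8.74% were called higher and 5.34% lower. Every imiquimod library exceeded every vehicle library for all 8 genes, as it did for 19.8% of all genes tested. The median log2 change was 2.03 over the 8 genes and -0.0061 over all genes tested. C2 averaged under 0.5 FPKM in vehicle cords and was therefore tested only because it was higher in imiquimod cords.

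The libraries held 21242413 to 23200996 fragments in the imiquimod group and 18174411 to 20672881 in the vehicle group, as recovered from FPKM and exon length, so every imiquimod library was the deeper (p = 0.1 by an exact two-sided permutation, which 3 mice against 3 cannot go below). Gapdh, a glycolysis gene with many pseudogenes, was listed at 26.4 FPKM in imiquimod replicate 3 and at 1.56 to 2.15 FPKM in the other 5 libraries. Imiquimod replicate 3 thus stood apart for that gene, and each change below was also computed without that library. Over all genes tested, limma's sample quality weights, lower for more variable libraries, were 0.454, 0.709 and 0.836 for imiquimod replicates 1, 2 and 3. They were 1.51 to 1.61 for the vehicle libraries. Neuronal markers summed to 834 to 1038 FPKM in imiquimod cords and 1116 to 1165 FPKM in vehicle cords, and oligodendrocyte markers to 5180 to 6717 FPKM and 7913 to 8457 FPKM in those groups, so the defining markers of spinal cord were present in every library. In bulk tissue, a change in the number of cells of a type and a change in RNA per cell cannot be told apart.

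The C1q and C1r promoters are shown because the C1q genes moved together and because C1ra has a near-copy, C1rb, whose reads it can share. The windows run from 250 bases before to 50 bases after the RefSeq start site (build GRCm38.p6), and RefSeq promoters were matched for 4 of the 8 genes, C1qb, C1qc, C1ra and C1s1. C1qa, C2, C4b and Serping1 were not matched. Capitals mark matches, on either strand, to 3 motifs: the interferon-stimulated response element (GAAA, any 2 bases, GAAA), the gamma-activated sequence bound by STAT dimers (TTCNNNGAA) and the box bound by the myeloid factor PU.1 (GAGGAAG). The windows are chr4:136886151-136886450 on the minus strand for C1qb, chr4:136892865-136893164 on the minus strand for C1qc, chr6:124512371-124512670 on the plus strand for C1ra and chr6:124570180-124570479 on the plus strand for C1rb.
C1qb: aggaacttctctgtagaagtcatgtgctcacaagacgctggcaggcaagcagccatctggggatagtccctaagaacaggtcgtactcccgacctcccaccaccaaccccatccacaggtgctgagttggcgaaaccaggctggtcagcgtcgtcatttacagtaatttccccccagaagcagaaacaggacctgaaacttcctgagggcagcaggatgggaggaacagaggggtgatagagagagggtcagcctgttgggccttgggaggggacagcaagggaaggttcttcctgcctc
C1qc: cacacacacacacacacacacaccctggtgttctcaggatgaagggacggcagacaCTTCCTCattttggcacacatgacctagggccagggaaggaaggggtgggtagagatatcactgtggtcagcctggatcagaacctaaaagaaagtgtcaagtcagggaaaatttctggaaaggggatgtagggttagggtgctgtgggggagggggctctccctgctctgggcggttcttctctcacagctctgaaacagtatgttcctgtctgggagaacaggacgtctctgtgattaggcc
C1ra: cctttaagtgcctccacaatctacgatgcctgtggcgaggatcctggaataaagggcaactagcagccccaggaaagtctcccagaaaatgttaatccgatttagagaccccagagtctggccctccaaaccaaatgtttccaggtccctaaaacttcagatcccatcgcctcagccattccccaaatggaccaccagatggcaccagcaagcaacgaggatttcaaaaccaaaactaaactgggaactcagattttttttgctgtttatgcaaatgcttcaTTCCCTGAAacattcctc
C1rb: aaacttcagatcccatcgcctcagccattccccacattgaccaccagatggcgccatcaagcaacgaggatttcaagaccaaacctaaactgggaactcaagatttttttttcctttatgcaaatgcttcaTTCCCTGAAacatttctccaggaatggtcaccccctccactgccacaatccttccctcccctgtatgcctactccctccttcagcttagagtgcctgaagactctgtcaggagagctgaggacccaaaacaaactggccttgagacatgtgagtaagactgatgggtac
The C1qb window held none of the 3 motifs, and the C1qc window held 1 PU.1 box, which begins 194 bases before the start site and lies on the opposite strand. The C1ra window held 1 gamma-activated sequence beginning at base 33 after the start site, and the same letters begin 119 bases before the start site of C1rb. Over 148 aligned bases, 139 (93.9%) were identical between the C1ra and C1rb windows. Neither of the C1s1 windows, nor that of its near-copy C1s2, held a match. Of 32851 RefSeq promoters, 3.44% held the interferon-stimulated response element, 8.3% the gamma-activated sequence and 13.6% the PU.1 box, so these matches are a description of the letters and say nothing about binding.

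C1qa, C1qb and C1qc encode the 3 chains that assemble into C1q, and lie within 18.7 kb on chromosome 4, all on the minus strand. C1qa (ENSMUSG00000036887, chr4:136895917-136898803) was at 228, 186 and 188 FPKM in imiquimod cords and at 63.2, 78.4 and 83.0 FPKM in vehicle cords. The lowest imiquimod library was 2.24 times the highest vehicle library, and imiquimod replicate 1 was the highest of all 6. On average C1qa was at 200.4 ± 23.6 FPKM in imiquimod cords and 74.9 ± 10.3 FPKM in vehicle cords (SD, n = 3 each), a log2 change of 1.42 ± 0.13 (SE, limma adjusted p = 0.00158).

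C1qb (ENSMUSG00000036905, chr4:136880129-136886187) was at 206, 157 and 165 FPKM in imiquimod cords and at 54.8, 66.5 and 78.8 FPKM in vehicle cords. The order of the 6 libraries was as for C1qa, and the groups did not overlap. Its log2 change was 1.40 ± 0.16 (SE, limma adjusted p = 0.00314), from means of 176 ± 26.2 FPKM in imiquimod cords and 66.7 ± 11.99 FPKM in vehicle cords. C1qc (ENSMUSG00000036896, chr4:136889804-136893065) was at 95.3, 75.3 and 80.0 FPKM in imiquimod cords and at 26.0, 31.3 and 35.5 FPKM in vehicle cords. Its libraries fell in the same order, at a level well under that of the other chains in every mouse. Its log2 change was 1.43 ± 0.13 (SE, limma adjusted p = 0.00176), from means of 83.5 ± 10.4 FPKM in imiquimod cords and 30.9 ± 4.73 FPKM in vehicle cords.

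The 3 chains kept nearly constant proportions. The C1qa/C1qb ratio of FPKM was 1.11, 1.19 and 1.14 in imiquimod cords and 1.15, 1.18 and 1.05 in vehicle cords. The C1qc/C1qb ratio was 0.463, 0.480 and 0.485 in imiquimod cords and 0.475, 0.471 and 0.4502 in vehicle cords. Both ratios overlapped between the groups, with log2 differences of 0.02 and 0.03 (exact two-sided permutation p = 0.8 and 0.4, adjusted p = 0.8 and 0.6 over 6 ratios). The difference in C1qa/C1qb turned to -0.0066 without imiquimod replicate 2 and to -0.0279 without vehicle replicate 3. The chains share no run of 50 bases between their longest transcripts, so reads could not be exchanged among them over such a length.

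**Figure D1:**
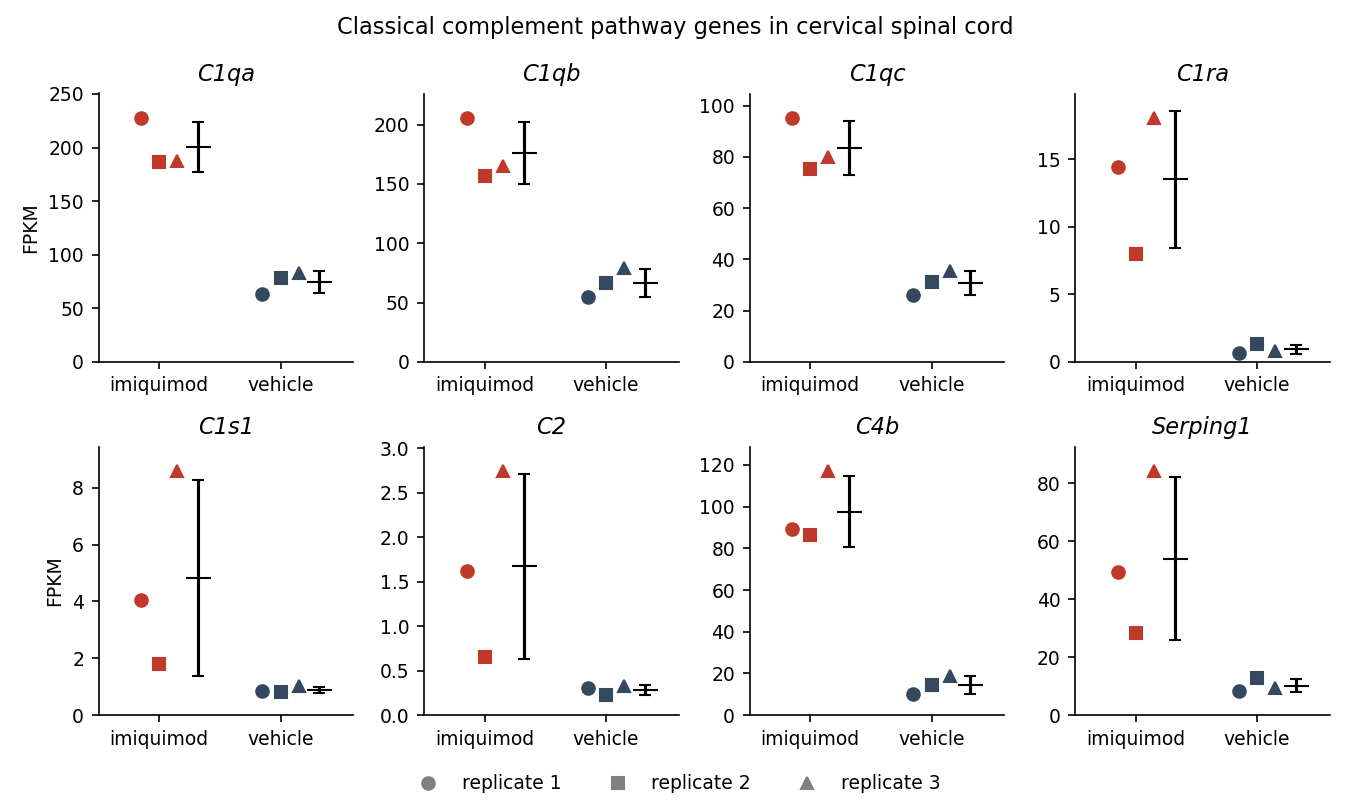
FPKM of the 8 classical pathway genes in each library, imiquimod left and vehicle right, with the marker shape giving the replicate and bars the mean ± SD of 3 mice. The imiquimod libraries lie above the vehicle libraries in every panel, from 2.74 FPKM at most for C2 to 228 FPKM at most for C1qa.

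C1ra and C1s1 encode the mouse proteases C1r and C1s, which sit in the C1 complex with C1q. They lie within 29.96 kb on chromosome 6, C1ra on the plus and C1s1 on the minus strand. C1ra (ENSMUSG00000055172, chr6:124512405-124523443) was at 14.4, 8.03 and 18.1 FPKM in imiquimod cords and at 0.644, 1.33 and 0.789 FPKM in vehicle cords, from 887, 535 and 1264 fragments and from 34, 69 and 46 fragments in those libraries. Even the lowest imiquimod library was 6.03 times the highest vehicle library. C1ra had the largest change of the 8 genes, a log2 change of 3.72 ± 0.35 (SE, limma adjusted p = 0.00173), which placed it 39th of the 16513 genes ranked by log2 change. Its means were 13.5 ± 5.08 FPKM in imiquimod cords and 0.922 ± 0.362 FPKM in vehicle cords.

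C1s1 (ENSMUSG00000038521, chr6:124530345-124542359) was at 4.05, 1.82 and 8.58 FPKM in imiquimod cords and at 0.849, 0.827 and 1.01 FPKM in vehicle cords, from 261, 127 and 630 fragments and from 47, 45 and 62 fragments. The vehicle libraries lay close together while the imiquimod libraries spanned 4.73-fold, and the groups did not overlap. Its log2 change was 2.05 ± 0.49 (SE, limma adjusted p = 0.0370), from means of 4.81 ± 3.45 FPKM in imiquimod cords and 0.896 ± 0.102 FPKM in vehicle cords. That call was lost in 5 of 6 leave-outs, in each of which 1 library was omitted. The limma adjusted p was 0.0952 without imiquimod replicate 1 and 0.0517 without imiquimod replicate 3. It was 0.117, 0.107 and 0.0968 without vehicle replicates 1, 2 and 3. It was 0.0053 without imiquimod replicate 2, the lowest of the imiquimod libraries. The log2 change was 2.01, 2.00 and 2.13 without vehicle replicates 1, 2 and 3, close to that from all libraries. It was 2.04, 2.59 and 1.505 without imiquimod replicates 1, 2 and 3.

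C1s1 was below C1ra in every imiquimod cord, and in 1 of 3 vehicle cords. The C1s1/C1ra ratio of FPKM was 0.280, 0.226 and 0.475 in imiquimod cords and 1.32, 0.621 and 1.28 in vehicle cords. The groups did not overlap, and the log2 difference was -1.67, with an exact permutation p of 0.1, the smallest the design allows, and an adjusted p of 0.6 over the 6 ratios. No ratio could reach a p under 0.05 with 3 mice against 3, so the test cannot decide whether this ratio differed.

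C1ra, C1s1 and C4b each have a near-copy whose reads cannot always be told from theirs. In windows of 50 bases, 48.0% of the C1ra transcript occurs in C1rb, 24.3% of C1s1 in C1s2 and 35.2% of C4b in C4a. None of the copies reached the level needed for the test. C1rb had 1, 2 and 7 fragments in imiquimod cords and 0 in each vehicle cord, C1s2 had 0, 7 and 2 fragments in imiquimod cords and 6, 3 and 0 in vehicle cords, and C4a had 18, 23 and 26 fragments in imiquimod cords and 8, 9 and 12 in vehicle cords. How reads with several matches were counted is not given in the sources used here, so the levels of these 3 genes are uncertain to that extent. C1s1 also shares 576 of its 3129 exon bases (18.4%) with the antisense gene Gm16567, listed at 0 FPKM in every library, and C2 shares 1656 of 3872 exon bases (42.8%) with the overlapping gene Gm20547, likewise listed at 0 FPKM, and 161 (4.16%) with Zbtb12 on the other strand, at 2.10 to 2.81 FPKM in imiquimod cords and 2.38 to 3.02 FPKM in vehicle cords.

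C4b encodes complement C4 in mice, whose larger fragment attaches to the target surface, and it is a known marker of reactive glia. C4b (ENSMUSG00000073418, chr17:34728380-34743882, minus strand) was at 89.4, 86.2 and 117 FPKM in imiquimod cords and at 10.2, 14.3 and 18.6 FPKM in vehicle cords. The lowest imiquimod library was 4.63 times the highest vehicle library. Its log2 change was 2.78 ± 0.22 (SE, limma adjusted p = 0.00106), from means of 97.5 ± 16.9 FPKM in imiquimod cords and 14.4 ± 4.21 FPKM in vehicle cords, a 6.78-fold difference of means. C2 encodes the protease that joins the C4 fragment to make the C3-cleaving enzyme, and lies with C4b within 170 kb on chromosome 17 (chr17:34862604-34898265, minus strand, ENSMUSG00000024371). C2 was at 1.62, 0.658 and 2.74 FPKM in imiquimod cords and at 0.306, 0.223 and 0.330 FPKM in vehicle cords, from 129, 57 and 249 fragments and from 21, 15 and 25 fragments.

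C2 was thus the least abundant of the 8 genes in both groups, and the groups did not overlap. Its log2 change was 2.01 ± 0.47 (SE, limma adjusted p = 0.0344), from means of 1.67 ± 1.04 FPKM in imiquimod cords and 0.286 ± 0.0564 FPKM in vehicle cords. As for C1s1, that call was lost in 5 of 6 leave-outs. The limma adjusted p was 0.0964 without imiquimod replicate 1 and 0.0829 without imiquimod replicate 3. It was 0.0891 to 0.103 without vehicle replicate 1, 2 or 3, and 0.0055 without imiquimod replicate 2. The log2 change was 2.05, 1.89 and 2.09 without vehicle replicates 1, 2 and 3. It was 1.94, 2.52 and 1.57 without imiquimod replicates 1, 2 and 3. The C4b/C2 ratio of FPKM was 55.3, 131 and 42.7 in imiquimod cords and 33.3, 64.1 and 56.4 in vehicle cords. These overlapped, with a log2 difference of 0.77 (exact two-sided permutation p = 0.3, adjusted p = 0.6) and 0.49 with a pseudocount of 0.01. With a pseudocount of 1 it was 1.73 and the groups no longer overlapped (exact permutation p = 0.1, the smallest possible).

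Serping1 encodes C1 inhibitor, the serpin that blocks C1r and C1s and also plasma kallikrein. Serping1 (ENSMUSG00000023224, chr2:84765387-84775444, minus strand) was at 49.3, 28.5 and 84.3 FPKM in imiquimod cords and at 8.41, 12.8 and 9.37 FPKM in vehicle cords. Imiquimod replicate 3 was 2.96 times imiquimod replicate 2, and both exceeded every vehicle library. Its log2 change was 2.28 ± 0.37 (SE, limma adjusted p = 0.0109), from means of 54.0 ± 28.2 FPKM in imiquimod cords and 10.2 ± 2.33 FPKM in vehicle cords. The Serping1/C1s1 ratio of FPKM was 12.2, 15.7 and 9.82 in imiquimod cords and 9.91, 15.5 and 9.25 in vehicle cords. These ratios overlapped almost fully, and their log2 difference was 0.23 (exact two-sided permutation p = 0.5, adjusted p = 0.6), or 0.14 with a pseudocount of 0.01. With a pseudocount of 1 it was 0.74 and the groups no longer overlapped (exact permutation p = 0.1, the smallest possible). The C1s1/C1qb ratio, by contrast, was 0.0197, 0.0116 and 0.0520 in imiquimod cords and 0.0155, 0.0124 and 0.0129 in vehicle cords. Imiquimod replicate 3 was far above the rest. The log2 difference of that ratio was 0.64 (exact two-sided permutation p = 0.4, adjusted p = 0.6). That difference was 0.06 without imiquimod replicate 3, 1.12 without imiquimod replicate 2 and 0.05 with a pseudocount of 1.

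**Figure D2:**
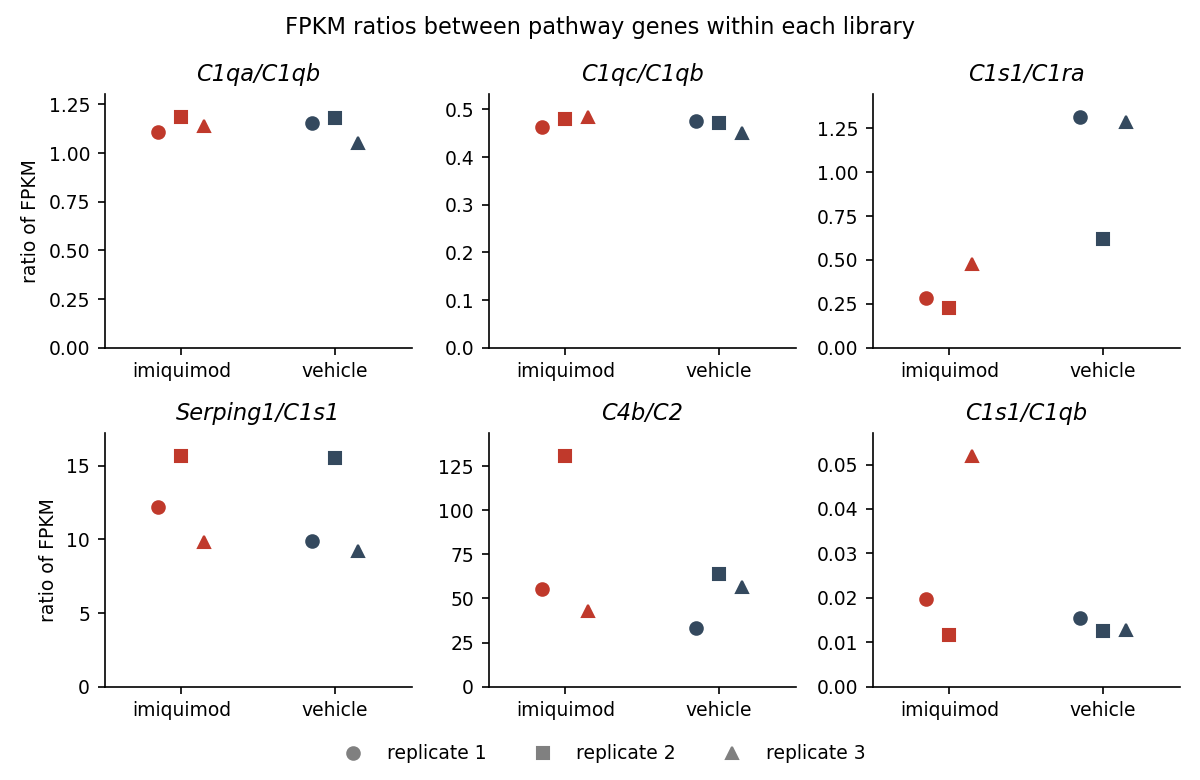
Ratios of FPKM between pairs of pathway genes within each library, imiquimod left and vehicle right, with the marker shape giving the replicate. The C1q chain ratios stay between 1.05 and 1.19 for C1qa/C1qb, while C1s1/C1ra lies between 0.226 and 0.475 in imiquimod cords and between 0.621 and 1.32 in vehicle cords.

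Leaving out each library in turn kept every log2 change of the 8 genes above 0. The ranges were 1.31 to 1.502 for C1qa, 1.27 to 1.53 for C1qb, 1.32 to 1.54 for C1qc, 3.47 to 4.05 for C1ra, 2.56 to 2.99 for C4b and 1.89 to 2.67 for Serping1, all called. Serping1 came nearest to the threshold among these, with a highest limma adjusted p of 0.0482. The ranges were 1.505 to 2.59 for C1s1 and 1.57 to 2.52 for C2, called only without imiquimod replicate 2 among the 6 leave-outs.

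**Figure D3:**
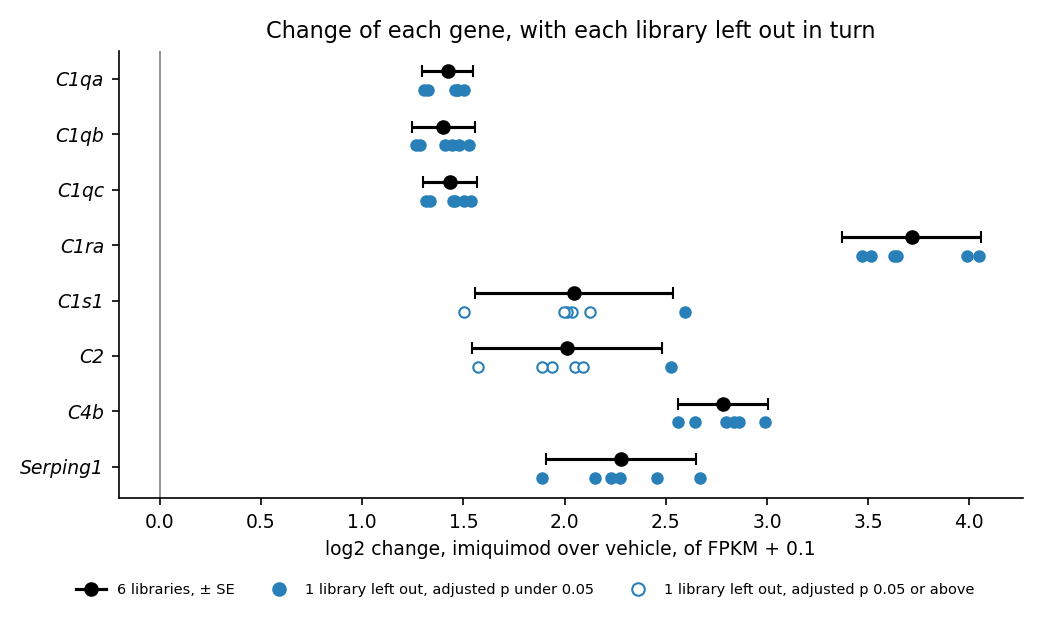
Log2 change, imiquimod over vehicle, of FPKM + 0.1 for each pathway gene from all 6 libraries (black, ± SE) and with 1 library left out (blue, filled where the limma adjusted p was under 0.05). C1ra lies farthest right, the 3 C1q chains overlap one another, and C1s1 and C2 are open in 5 of 6 leave-outs.

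By level per length, the order in imiquimod cords was C1qa, C1qb, C4b, C1qc, Serping1, C1ra, C1s1 and C2, and the order in vehicle cords was C1qa, C1qb, C1qc, C4b, Serping1, C1ra, C1s1 and C2. In imiquimod cords the ranges of neighbours overlapped throughout that order except between C1qb and C4b and between Serping1 and C1ra. In vehicle cords they overlapped between C1qa and C1qb, between C4b and Serping1 and between C1ra and C1s1. C4b and C1qc thus stood at 86.2 to 117 FPKM and 75.3 to 95.3 FPKM in imiquimod cords, against 10.2 to 18.6 FPKM and 26.0 to 35.5 FPKM in vehicle cords, where C1qc was above C4b in every library. Within imiquimod replicate 1, C1qc at 95.3 FPKM was also above C4b at 89.4 FPKM. Within imiquimod replicates 2 and 3, C4b was above C1qc.

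The 8 genes did not vary in the same way among the imiquimod mice. The highest imiquimod library was 1.22 to 1.31 times the lowest for the 3 C1q chains and 1.36 times for C4b, but 2.25 times for C1ra, 2.96 times for Serping1, 4.16 times for C2 and 4.73 times for C1s1. Replicate 1 was highest and replicate 2 lowest for the C1q chains. Replicate 3 was highest and replicate 2 lowest for the other 5 genes, an order shared by 15.8% of all genes tested. In vehicle cords, replicate 1 was lowest for the C1q chains, C4b, C1ra and Serping1, and replicate 2 for C1s1 and C2.

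Cell markers showed which libraries shared that order. The 8 meningeal fibroblast markers summed to 46.7, 17.8 and 113 FPKM in imiquimod cords and to 37.9, 72.8 and 45.1 FPKM in vehicle cords, and all 8 had the order replicate 3, 1, 2 among imiquimod libraries. The 7 tested border macrophage markers all had that order too, with sums over the list of 4.42, 1.96 and 8.92 FPKM in imiquimod cords and 7.95, 12.7 and 10.8 FPKM in vehicle cords. So did all 4 tested Schwann cell markers, whose list summed to 147, 47.3 and 242 FPKM in imiquimod cords and 255, 228 and 337 FPKM in vehicle cords, and 5 of 7 tested monocyte markers, whose list summed to 64.0, 24.9 and 83.3 FPKM in imiquimod cords and 4.36, 12.2 and 6.14 FPKM in vehicle cords. Imiquimod replicate 2 was below every vehicle library in the meningeal, border macrophage and Schwann cell sums, and in that same library C1s1 was at 1.82 FPKM, C2 at 0.658 FPKM and Serping1 at 28.5 FPKM, each above every vehicle library. The part of these cell types in the spread among imiquimod mice was not tested.

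**Figure D4:**
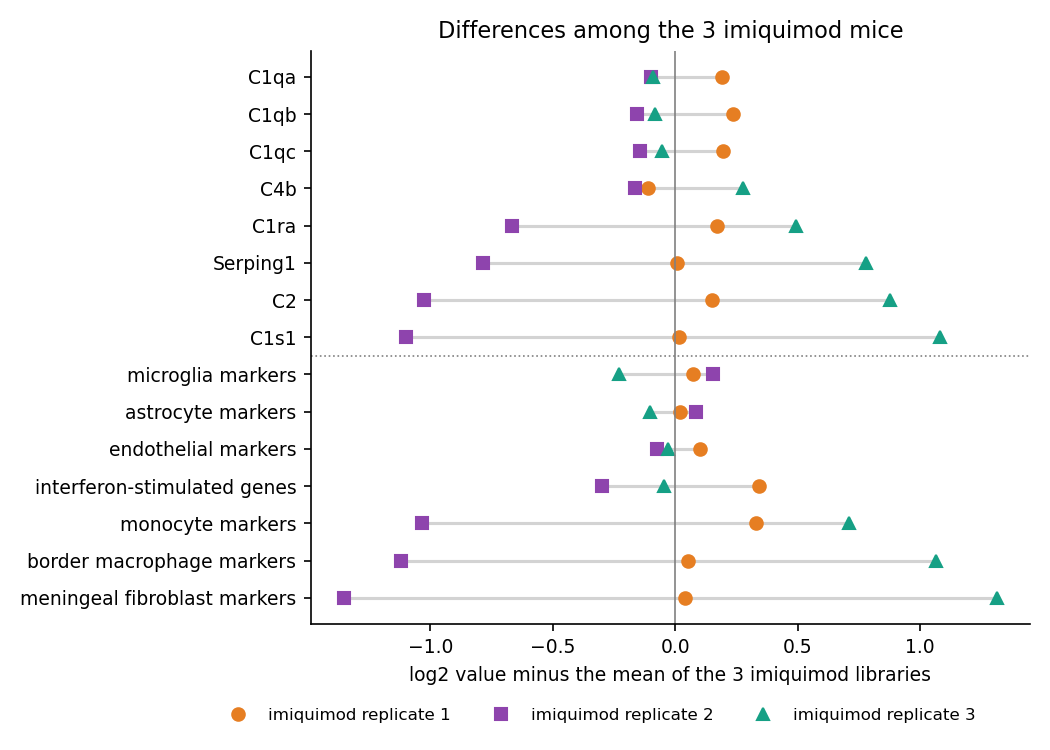
Spread among the 3 imiquimod libraries, as log2 value minus the mean of the 3, for the pathway genes (FPKM + 0.1) and for summed markers of 7 groups, with the symbol giving the replicate. The C1q chains stay within 0.24 of their mean, while C1s1 spans -1.10 to 1.08 and lies in the same order as monocyte, border macrophage and meningeal fibroblast markers.

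Several of these lists also differed between the groups. Of the 7 tested monocyte markers 4 were called higher and 0 lower, beside 8.74% higher and 5.34% lower of all genes tested. Among the 4 was Ly6c2, the surface marker of inflammatory monocytes, at 14.7, 5.65 and 20.1 FPKM in imiquimod cords and 0.289, 1.72 and 0.504 FPKM in vehicle cords (log2 change 3.99 ± 0.65, limma adjusted p = 0.0110). The call of Plac8, another of the 4, was lost in 4 of the 6 leave-outs, with limma adjusted p up to 0.0945. Of the 7 tested border macrophage markers 1 was higher (Ms4a7) and 3 lower (Mrc1, Cd163, Pf4), and each of these 4 calls was lost in 4 or 5 of the 6 leave-outs, with adjusted p up to 0.149 for Mrc1 without vehicle replicate 1. Ms4a7 and the monocyte marker Ccr2 averaged under 0.5 FPKM in vehicle cords, and Mrc1 and Cd163 in imiquimod cords, so each was tested only through the group in which it was high. The 10 homeostatic microglia markers summed to 122 to 159 FPKM in imiquimod cords and 110 to 123 FPKM in vehicle cords, with 2 called higher (Tmem119, Olfml3) and 1 lower (Fcrls). Endothelial markers summed to 218 to 246 FPKM in imiquimod cords and 106 to 123 FPKM in vehicle cords, with 5 of 7 called higher, and the 8 meningeal fibroblast markers gave no call. The part of any of these cell types in the changes of the 8 genes was not tested.

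Among the remaining lists, calls were few apart from interferon-stimulated genes. The 6 hepatocyte markers, among them Alb for albumin at 0.218 to 0.456 FPKM in imiquimod cords and 0.284 to 0.531 FPKM in vehicle cords, summed to 0.959 to 1.34 FPKM in imiquimod cords and 0.755 to 1.52 FPKM in vehicle cords, and none was tested. Markers of B and plasma cells summed to 1.158 to 1.57 FPKM in imiquimod cords and 0.516 to 1.70 FPKM in vehicle cords, with 0 of 1 tested called. Astrocyte markers summed to 1315 to 1496 FPKM in imiquimod cords and 1448 to 1510 FPKM in vehicle cords, with 1 called higher and 2 lower of 9. Neutrophil markers summed to 22.8 to 34.0 FPKM in imiquimod cords and 21.5 to 81.6 FPKM in vehicle cords, with 1 of 6 tested called higher, and red blood cell markers to 44.6 to 155 FPKM in imiquimod cords and 125 to 490 FPKM in vehicle cords, with 0 of 5 called. All 12 interferon-stimulated genes listed were called higher, beside 8.74% of all genes tested. Their sums were 2454, 1576 and 1879 FPKM in imiquimod cords and 71.4, 250 and 140 FPKM in vehicle cords. Among imiquimod libraries, 10 of them had the order replicate 1, 3, 2 that the C1q chains had, against 17.5% of all genes tested. For C1qa, replicates 2 and 3 were nearly equal, at 186 and 188 FPKM. The vehicle orders differed: replicate 2, 3, 1 for the interferon sums and replicate 3, 2, 1 for each C1q chain.

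The genes most like C1qb over the 6 libraries, by the root mean square difference of centred log2(FPKM + 0.1), were Tmem173 at 0.075, H2-K2 at 0.091 and Bcl3 at 0.105, while C1qc and C1qa were closer still at 0.035 and 0.058. Those most like C1ra were Slfn1 at 0.173, Oas1g at 0.227 and Fcgr4 at 0.263. C4b was nearest to Pilra at 0.166, B2m at 0.184 and Cd244a at 0.194. Serping1 was nearest to Trem1 at 0.137, Sirpb1c at 0.139 and Lilr4b at 0.155, with C1s1 and C2 at 0.311 and 0.352. Bcl3, Slfn1, Oas1g, Pilra, Cd244a, Trem1, Sirpb1c and Lilr4b averaged under 0.5 FPKM in vehicle cords and entered only through their level in imiquimod cords. The vehicle means of Cd244a, Trem1, Sirpb1c and Lilr4b were 0.0701, 0.0191, 0.0496 and 0.0674 FPKM, under the 0.1 added before the log, so their likeness depends on that pseudocount and on the filter. C1ra stood at 0.945 from its partner C1s1 and at 0.614 from C4b. The measure spans both groups, so unequal log2 changes enter it: 3.72 for C1ra, 2.05 for C1s1 and 2.78 for C4b. Among the imiquimod libraries alone, C1ra, C1s1 and C4b shared the order replicate 3, 1, 2.

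Beyond the 8 genes, 54 other complement genes were listed by role, of which 33 passed the filter. Among them 10 were called higher and 0 lower, beside 8.74% higher and 5.34% lower of all genes tested. The median log2 change of the 33 was 0.20. Of the 33, Cfb, C5ar1, C5ar2 and Itgax averaged under 0.5 FPKM in vehicle cords and were tested only through their level in imiquimod cords. Downstream of the classical pathway, C3, the component on which all pathways meet, was at 29.4, 27.2 and 61.6 FPKM in imiquimod cords and at 7.77, 7.25 and 6.82 FPKM in vehicle cords. Imiquimod replicate 3 was again highest, the groups did not overlap, and the log2 change was 2.32 ± 0.29 (SE, limma adjusted p = 0.00453). Of the alternative loop, which amplifies C3 cleavage, Cfb for factor B was at 0.515, 0.427 and 0.935 FPKM in imiquimod cords and at 0.0200, 0.122 and 0.0724 FPKM in vehicle cords (log2 change 2.06 ± 0.49, limma adjusted p = 0.0365), and Cfp for properdin had a log2 change of 0.68 without a call. The Cfb call was lost without imiquimod replicate 1 (adjusted p = 0.0866) and without vehicle replicates 1, 2 and 3 (adjusted p = 0.0978, 0.0669 and 0.0863).

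None of the 3 tested lectin pathway genes was called, with a median log2 change of 0.12, among them Masp1, a protease that lectins carry in the place of C1r and C1s, at 2.78 to 3.04 FPKM in imiquimod cords and 2.56 to 2.87 FPKM in vehicle cords. Of 7 terminal components, which build the membrane pore, only C8g passed the filter, with a log2 change of 0.16 and no call. None of the 11 tested membrane regulators, which protect host cells, was called, and their median log2 change was -0.23. In every imiquimod library, 5 of them were lower than in every vehicle library, as for 18.0% of all genes tested. Those 5 included Csmd1, Csmd2, Csmd3 and Sez6l. Sez6l2 was instead higher in every imiquimod library than in every vehicle library, as for 19.8% of all genes tested. Cd59a, which blocks the pore, was one of the 5, at 20.03, 18.5 and 16.8 FPKM in imiquimod cords and 23.2, 22.5 and 20.9 FPKM in vehicle cords (log2 change -0.27, limma adjusted p = 0.0724), and it was called lower without imiquimod replicate 1 (adjusted p = 0.0490). Of the soluble regulators Clu, the chaperone clusterin, was called higher (log2 change 0.53 ± 0.07, limma adjusted p = 0.00439).

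Receptors were the role with the most calls outside the pathway itself, 7 of 12 tested called higher and 0 lower. Of all genes tested, 8.74% were called higher and 5.34% lower. C5ar1 and Itgax, among the 7, and C5ar2, which was not called, averaged under 0.5 FPKM in vehicle cords. They were thus tested only through their level in imiquimod cords. C3ar1, the receptor of the C3 fragment C3a, was at 5.60, 4.03 and 8.75 FPKM in imiquimod cords and at 0.669, 0.681 and 0.736 FPKM in vehicle cords (log2 change 2.90 ± 0.26, limma adjusted p = 0.00158). C5ar1, the receptor of C5a, was at 4.60, 2.87 and 6.20 FPKM in imiquimod cords and at 0.176, 0.761 and 0.458 FPKM in vehicle cords (log2 change 3.13 ± 0.45, limma adjusted p = 0.00715). The integrin genes Itgam, Itgax and Itgb2, whose products form the complement receptors for cleaved C3 on myeloid cells, had log2 changes of 2.10, 3.74 and 2.35, and the groups did not overlap for any of them. Cd93, once described as a C1q receptor and expressed by endothelial and myeloid cells, had a log2 change of 2.02. Calr for calreticulin, which binds C1q, had a log2 change of 0.36, and that call was lost without imiquimod replicate 3 (adjusted p = 0.0533) and without vehicle replicates 1, 2 and 3 (adjusted p = 0.0961, 0.0701 and 0.0867). C1qbp, Lrp1, Megf10 and Scarf1, further proteins described to bind C1q, gave no call, with log2 changes from -0.30 for Megf10 to 0.53 for Scarf1.

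**Figure D5:**
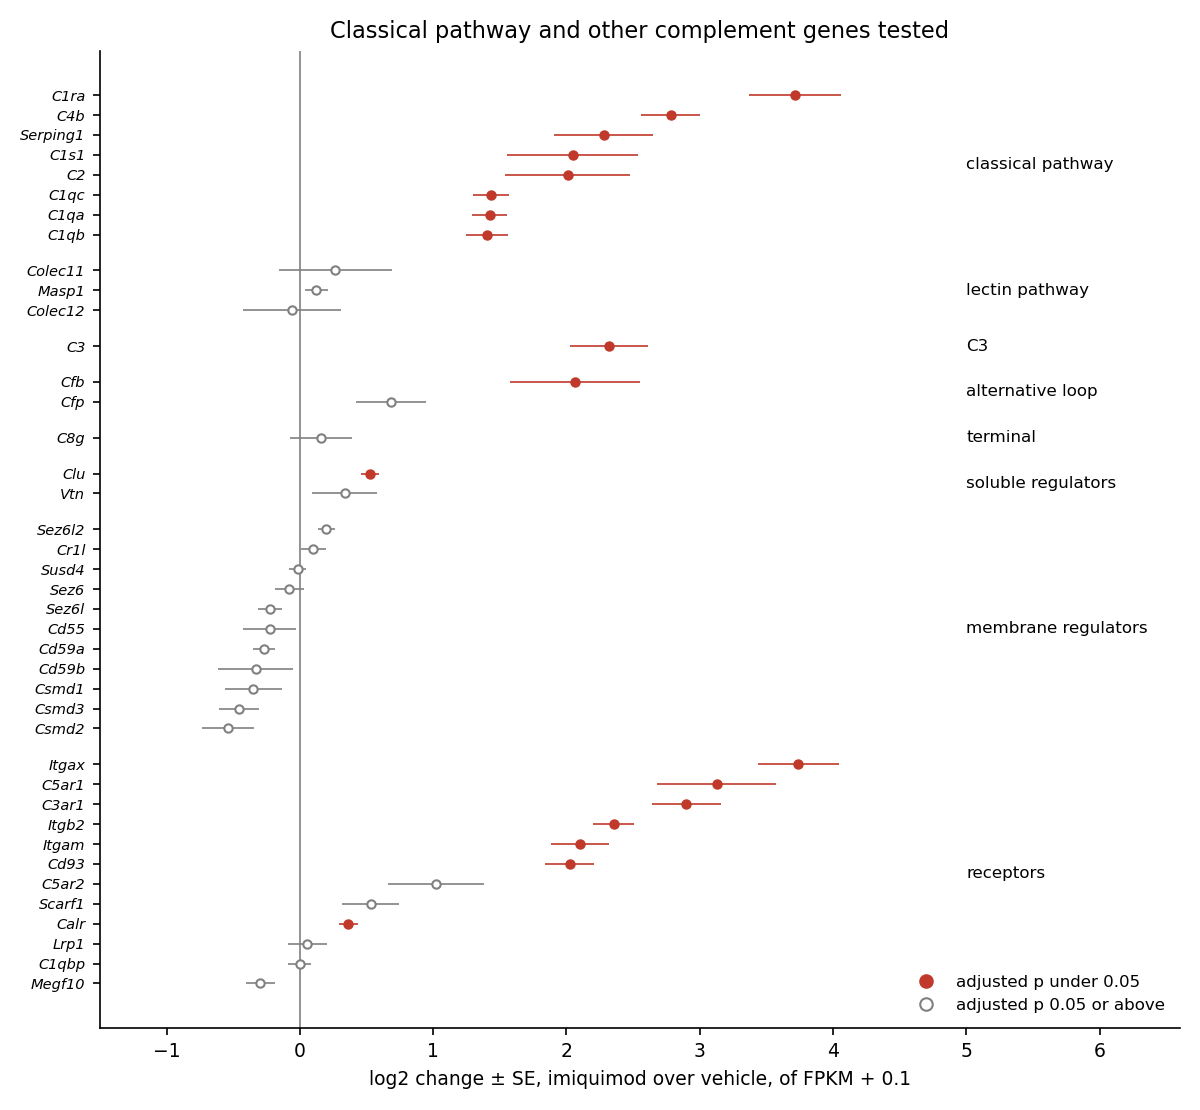
Log2 change ± SE, imiquimod over vehicle, of the 8 classical pathway genes and 32 of the 33 other complement genes tested, 1 of them not being reported here, grouped by role, filled red where the limma adjusted p was under 0.05. The classical genes, C3, Cfb and most myeloid receptors lie above 1, and the lectin, terminal and membrane regulator genes lie between -0.54 and 0.27 with no call.

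The genes beside the 8 on their chromosomes were read from the same fit. Of 21 other protein-coding genes within 50 kb of any of them, a window chosen after the values were seen, 17 were tested, 2 were called higher, a count to be read beside the 8.74% of all genes tested, and 0 lower, and the median log2 change was 0.09. Those called were Cfb, which lies 86 bases from C2, and Ube2l6, an enzyme of the ISG15 conjugation pathway near Serping1, with means of 34.4 FPKM in imiquimod cords and 5.80 FPKM in vehicle cords (log2 change 2.53). C1rl, a C1r-like gene 1762 bases from C1ra, had a log2 change of 1.06 (limma adjusted p = 0.0695) and was not called. Ehmt2, 204 bases from C2, was at 20.6 to 22.9 FPKM in imiquimod cords and 19.4 to 20.1 FPKM in vehicle cords, with no call.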

How the data were processed

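RNA from cervical spinal cord was sequenced for 3 imiquimod and 3 vehicle mice, from TRIzol extracts of single frozen cords per the labels' protocols. The deposited values are FPKM per gene and library, made by the authors. The submitters' processing notes name HISAT2 2.0.5, featureCounts 1.5.0-p3, DESeq2 1.16.1 and mm10, without roles. The strand setting and the counting of multi-mapping reads were not stated there.

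Symbols were found for 54409 of 54532 identifiers, and exon lengths in GENCODE release M21 for 54495. FPKM times exon length gave whole fragments within 0.05 for 97.4% to 97.6% of values under 1000 fragments. Among values above 1 FPKM, no pair of libraries held an identical one. The 16513 genes averaging 0.5 FPKM or more in a group were fitted with limma 3.58.1 (mean-variance trend, log2(FPKM + 0.1), no further scaling) in R 4.3.3, checked on simulated data. Fold changes on that scale understate those of low genes. Ratios between genes within a library were log2 of (FPKM + 0.1), tested by exact permutation of 3 against 3. Other steps used SciPy 1.17.1, NumPy 2.4.6, pandas 2.3.3 and, for plots, matplotlib 3.10.9 in Python 3.11.15.

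Named genes are the 8 members, their near-copies, listed other complement genes, C1q-domain genes, serpins, immunoglobulin genes and cell markers, and the 3 genes most like each of 4 members. The members and lists were chosen with earlier results of these data known. Some listed genes are counted but not reported here by name. Alternatives were other pseudocounts, filters, scalings, sample quality weights, voom on recovered fragments, removal of length and GC trends, a replicate block and leaving out each library.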

Additional observations from a re-analysis of the deposited data

How the results depend on the processing

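C1qa, C1qb, C1qc, C1ra, C4b and Serping1 were called higher under all 16 alternatives, and C1s1 and C2 under 8 of 16. C1s1 and C2 missed the threshold with no filter on low values (log2 change 2.05 and 2.01, limma adjusted p = 0.0728 and 0.0680), with a pseudocount of 1 (1.44 and 0.98, adjusted p = 0.0541 and 0.0568) and with voom on recovered fragments (2.19 and 2.35, adjusted p = 0.0836 and 0.0696), so 6 members were called there. With 1 library left out, their changes ran from 1.505 to 2.59 and from 1.57 to 2.52, 6 to 8 members were called, and the C1qa/C1qb log2 difference ran from -0.0279 to 0.0526, crossing 0 without imiquimod replicate 2 (-0.0066) and without vehicle replicate 3 (-0.0279).

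Over all genes, 1444 were called higher and 882 lower. Leaving out a library gave 660 to 1690 higher and 187 to 1296 lower. Lower genes numbered 1571 with length and GC trends removed and 508 with no filter. Other complement genes called numbered 8 to 13 higher and 0 to 2 lower with a library left out, and 1 was lower with length and GC trends removed or with sample quality weights. The causes were not tested.

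The labels do not say whether replicate numbers pair the mice. Same-numbered libraries correlated at 0.0186, -0.0970 and -0.0331 in their deviations from the group means. So few mice per group cannot settle whether they were paired. With the replicate block 894 genes were called higher and 436 lower, with all 8 members among the higher ones. C2 in vehicle cords rested on 15 to 25 fragments, which limits its precision.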

Other observations

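Antibody genes, whose products trigger C1, gave 1 call among 2 tested. Ighm for the heavy chain of IgM was called lower, at 22.7, 24.7 and 22.7 FPKM in imiquimod cords and 31.3, 33.2 and 30.8 FPKM in vehicle cords (log2 change -0.44 ± 0.06, limma adjusted p = 0.00727). Markers of B and plasma cells summed to far less, 1.158 to 1.57 FPKM in imiquimod cords and 0.516 to 1.70 FPKM in vehicle cords. The source of the Ighm values was not tested, so its change is not read as a change in antibody. Igkc for the kappa light chain was at 5.47, 4.37 and 4.49 FPKM in imiquimod cords and 1.49, 3.46 and 0.673 FPKM in vehicle cords and was not called (log2 change 1.57, adjusted p = 0.0799), though it was without vehicle replicate 2 (adjusted p = 0.0160). The other 5 of 7 listed did not pass the filter, and Ighg1 was listed at 0 in every library.

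Genes that share the C1q domain without belonging to the pathway gave 1 call. Of 11 tested, 0 were called higher and 1 lower, with a median log2 change of 0.05. C1ql1, a synaptic C1q-like protein, was at 12.7, 11.1 and 9.43 FPKM in imiquimod cords and 15.7, 16.3 and 17.7 FPKM in vehicle cords (log2 change -0.59 ± 0.11, limma adjusted p = 0.0191), and was not called without vehicle replicates 1, 2 or 3 (adjusted p = 0.0590, 0.0641 and 0.0752).

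Of 7 other tested serpins that inhibit serine proteases, as Serping1 does, 4 were called higher and 0 lower. The shares over all genes tested were 8.74% higher and 5.34% lower. The median log2 change of the 7 serpins was 0.72. Serpina3n, a marker of reactive astrocytes, was at 124, 131 and 199.9 FPKM in imiquimod cords and 25.3, 25.3 and 27.3 FPKM in vehicle cords (log2 change 2.51 ± 0.18, limma adjusted p = 0.000811). Serpinb9 and Serpind1 had log2 changes of 0.78 and 0.72, and the call of Serpind1 was lost in 5 of 6 leave-outs, all but that of imiquimod replicate 2, with adjusted p up to 0.0985. Serpine2, the brain protease nexin, was at 31.2, 32.7 and 26.2 FPKM in imiquimod cords and 33.5, 31.2 and 33.6 FPKM in vehicle cords and was not called.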
